A study of Rattus norvegicus with 53 samples.

Results

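Lcn2, the gene of lipocalin 2, was followed across 51 whole eyes of Heterogeneous Stock (HS) rats. It was chosen by its measured values in these same eyes, because it was at 0 in some of them and among the more variable genes, and it is 1 of the 32576 genes deposited. In the files it carries the identifier ENSRNOG00000013973 and starts at position 11417546 of chromosome 3 (Rnor_6.0). The levels of Lcn2 itself are therefore a description, and tests were made only on other genes and on technical measures of the eyes.

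Lipocalin 2 is a small secreted protein of the innate defence. It binds the siderophores with which bacteria take up iron, and so withholds iron from them. Neutrophils store it in their granules, and epithelial cells and reactive astrocytes make it during inflammation, when the transcription factor NF-kappaB switches the gene on. Cells take it up through receptors such as megalin, the product of Lrp2.

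HS rats are an outbred population descended from inbred strains, so each eye comes from an animal of different genotype. One eye per rat was frozen and its outer muscles were removed, and polyA RNA of the whole eye was sequenced in paired-end reads to map the genetics of expression in the eye. The labels give a single group, with no treatment, age or sex per eye, and some of the rats had been allowed to self-administer nicotine in another study. The sources used here do not say which. Values are RSEM expected counts divided by the total of their eye and multiplied by 1000000, written CPM, and each test was made on log2(CPM + 1). The expected counts came to between 9109084 and 42146827 per eye, with a median of 16193478. In bulk RNA, fewer cells of a type and less RNA per cell cannot be told apart.

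The window of 250 bases before the Lcn2 start is shown because it holds the control sequence next to the gene. It is RefSeq's reference sequence in GRCr8, chr3:36081781-36082030, minus strand, written 5′ to 3′ in the direction of transcription, with matches to the motifs searched in capitals. It is not sequence read from these eyes, and its build is not that of the expression values.
Lcn2 upstream window: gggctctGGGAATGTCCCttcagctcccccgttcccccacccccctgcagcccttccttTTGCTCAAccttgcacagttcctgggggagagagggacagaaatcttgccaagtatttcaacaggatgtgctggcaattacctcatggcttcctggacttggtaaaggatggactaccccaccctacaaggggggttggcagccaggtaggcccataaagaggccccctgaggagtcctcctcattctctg

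The first stretch of capitals joins 2 overlapping matches. One is to the NF-kappaB consensus, read on the opposite strand 242 to 233 bases before the start, and 6.33% of the 33469 windows of this length in the table held such a match on either strand. The other is the 9-letter sequence GGGAATGTC, 243 to 235 bases before the start, which 0.206% of windows held. These 9 letters were chosen for the search after the window had been read. The second stretch, 191 to 184 bases before the start, matches the C/EBP pattern TTNNGNAA on the opposite strand, as did 37.2% of windows. The STAT pattern TTCNNNGAA, found in 7.67% of windows, and TATAAA, found in 12.9%, were not among the letters of the Lcn2 window. These matches describe the reference letters only.

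Lcn2 fell into 2 ranges with a wide gap between them. In 29 eyes it lay at 9.41 to 43.4 CPM, and in 22 eyes at 0 to 2.74 CPM. The step between the highest eye of the lower range and the lowest of the upper range was 3.44-fold, or 1.48 on the log2(CPM + 1) scale, and the next largest step between neighbouring eyes was 0.38, between 1.87 and 2.74 CPM. No eye lay between 2.74 and 9.41 CPM. The ranges are called here the eyes above and below the gap. They were drawn from Lcn2 itself, so no test of Lcn2 was made between them, and other genes were fitted on Lcn2 over all eyes.

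**Figure D1:**
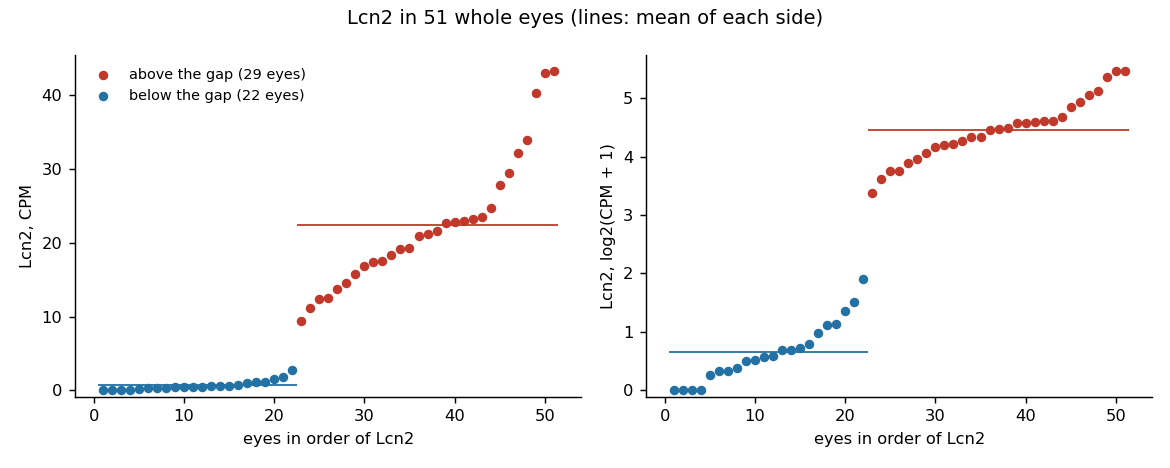
Lcn2 in each of the 51 eyes, placed from the lowest to the highest (horizontal axis), in CPM on the left and as log2(CPM + 1) on the right (vertical axes). Red points are the 29 eyes above the gap and blue points the 22 eyes below it, and the lines are the mean of each side, 22.5 and 0.681 CPM on the left. The step between 2.74 and 9.41 CPM stands out on both scales.

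The eyes above the gap averaged 22.5 ± 9.05 CPM (SD, n = 29), with a median of 21.2 CPM, and those below it 0.681 ± 0.682 CPM (SD, n = 22), with a median of 0.499 CPM. The means differed 33-fold and the medians 42.4-fold. On the log2(CPM + 1) scale the spread within a side was nearly the same, with an SD of 0.54 above the gap and 0.51 below it, against 1.97 over all 51 eyes. The added 1 narrows the spread of values under 1 CPM on that scale. Relative to the mean in CPM, the spread was larger below the gap. The side of the gap accounted for 93.0% of the variance of Lcn2 on that scale, a share that the way the sides were drawn makes large.

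At the bottom of the lower range, 4 eyes had no Lcn2 count. A count of 0 in these eyes allows a level of up to 0.153 to 0.197 CPM, taking 3 counts as the limit, so the highest eye, at 43.4 CPM, was at least 221-fold higher. A further 13 eyes lay above 0 and under 1 CPM, between 0.201 and 0.977 CPM. Between 1 and 10 CPM there were 6 eyes, of which 5 lay from 1.16 to 2.74 CPM and the other at 9.41 CPM. The other 28 eyes had 10 CPM or more. The 3 eyes at the top had 40.3, 42.99 and 43.4 CPM, and the next highest had 33.9 CPM.

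Counting error was small beside the difference between the sides. It was not small among the eyes above 0 and under 1 CPM, which had 3 to 15 expected counts, so the order of neighbouring eyes there is uncertain. Lcn2 had 111 to 818 expected counts in an eye above the gap and 0 to 44 in an eye below it, so the highest eye of the lower range and the lowest eye of the upper range stood apart in raw counts too. Every Lcn2 value came within 0.0016 of a whole count, so RSEM had divided few or no fragments between Lcn2 and another gene.

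Few genes of a like level varied as much. Of the 200 genes nearest to Lcn2 in mean level, 99.5% had a smaller SD, and their median SD was 0.43 on the log2(CPM + 1) scale. Among the 13844 genes whose median reached 1 CPM, it ranked 38 in SD and 14 in the width of its largest step that leaves at least 10 eyes on either side. That step was 1.48 for Lcn2 and 0.078 for the median gene. Within the 29 eyes above the gap alone, 86% of the 200 nearest genes had a smaller SD, with a median there of 0.31.

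The first 5 principal components of expression held 11.4% of its variance, where values unrelated to them would give 10%. The first 20 held 62.1%, against 40% for unrelated values, so the share on the components depended on how many were taken.

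No technical measure of the eyes passed a test of its relation with Lcn2. For the library measures these tests were made within each side of the gap only, so they do not cover the difference between the sides. Because the eyes fall into 2 clusters, the log2 total count, the number of genes above 0, the share of counts from the mitochondrial chromosome and the share held by the 10 most abundant genes were related to Lcn2 within each side. Of these 8 relations, the one with the smallest unadjusted p was a Spearman rho of -0.33 with the mitochondrial share above the gap (n = 29, Pearson r of -0.29, adjusted permutation p of 0.629 by rho and 0.665 by r, 10 tests). The total count had an r of -0.06 with Lcn2 above the gap and -0.35 below it (adjusted permutation p of 0.825 and 0.665). The median depth was 16331161 counts above the gap and 16127337 below it. The ranges differed more, at 11797129 to 42146827 counts above the gap and 9109084 to 19603566 below it, and the 3 deepest eyes lay above the gap. Without these 3 eyes the transcriptome-wide test described next called the same number of genes, 3.

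The sample labels begin with different tag prefixes, and 11 of the eyes carry a label that the authors corrected. Of the eyes with the common prefix 22 of 39 lay above the gap, and of the others 7 of 12, with a difference in mean of -0.33 on the log2(CPM + 1) scale (adjusted permutation p of 0.777, two-sided). Of the relabelled eyes 4 of 11 lay above the gap, and of those that kept their label 25 of 40. The difference in mean was -0.55, with an adjusted permutation p of 0.696. The relabelled eyes ran from 0.201 to 33.9 CPM and the others from 0 to 43.4 CPM, so both kinds of label occurred in both ranges.

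The genes that varied with Lcn2 were then looked for across the transcriptome, by fitting the log2(CPM + 1) of each gene on that of Lcn2 over the 51 eyes with limma. The slope is the change of a gene, in log2, for each doubling of Lcn2 CPM + 1. Because the side of the gap holds 93.0% of the variance of Lcn2 on this scale, the fit is largely a comparison of the sides. Of 13843 genes tested, 3 passed an adjusted p of 0.05 (Benjamini-Hochberg), which is 0.0217%. All 3 start within 0.5 Mb of Lcn2, on the same side of it. AABR07051450.1 and Sh2d3c rose with Lcn2 and ENSRNOG00000049034 fell. With the side of the gap as a covariate, in a fit chosen after seeing the data, 0 genes passed (smallest limma adjusted p of 0.164). Lcn2, AABR07051450.1 and Sh2d3c are each among the genes that the authors listed as having a cis-eQTL in these same eyes, and ENSRNOG00000049034 was not matched to that list. It holds 778 of the 32576 genes deposited. Golga2, which starts nearer to Lcn2 and did not pass, is on it too, so being listed does not set the passing genes apart. Genotypes were not used here, so whether the relations follow variants near these genes was not tested.

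AABR07051450.1, which the files list as ENSRNOG00000049056 and which has no described function in the sources used here, starts at 11653529 on chromosome 3, 236 kb from the start of Lcn2. It ran from 17.5 to 39.9 CPM with a median of 27.2 CPM in the eyes above the gap, against 11.5 to 30.5 CPM with a median of 17.2 CPM in those below it. The ranges overlapped, but the 4 eyes with no Lcn2 had 12.3 to 16.98 CPM, all under the lowest eye above the gap. Its slope was 0.161 with an SE of 0.0208 (95% interval 0.119 to 0.203, limma adjusted p of 3.64e-06, n = 51), a 1.12-fold rise per doubling over all eyes. Within a side, in fits chosen after seeing the data, it was 0.224 above the gap and 0.468 below it. Neither passed (limma adjusted p of 0.593 and 0.860), so the pooled slope is not a steady rate per doubling within the sides.

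Sh2d3c (ENSRNOG00000054560), whose product is an SH2 domain adaptor protein of cell adhesion and migration signalling, starts at 11756384, 339 kb from Lcn2. It had 8.88 to 30.6 CPM with a median of 19.2 CPM in the eyes above the gap, against 6.92 to 22.8 CPM with a median of 13.1 CPM in those below it. The ranges overlapped widely, and the eye at 8.88 CPM was lower than most eyes of the other side. Its slope was 0.141 with an SE of 0.0252 (95% interval 0.090 to 0.191, limma adjusted p of 0.00547).

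ENSRNOG00000049034, for which the sources used here give no name, starts at 11811962, 394 kb from Lcn2, and was expressed at a low level. It had 0.564 to 3.63 CPM with a median of 2.35 CPM in the eyes above the gap, against 1.48 to 8.70 CPM with a median of 3.93 CPM in those below it. It was the only called gene with a negative slope, -0.167 with an SE of 0.0328 (95% interval -0.233 to -0.101, limma adjusted p of 0.0219). Its start lies 1061 bp from that of ENSRNOG00000050650, whose slope was 0.0240 (unadjusted p of 0.512). The sources used here do not say whether strand was used in counting, so the division of reads between these neighbours is uncertain.

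**Figure D2:**
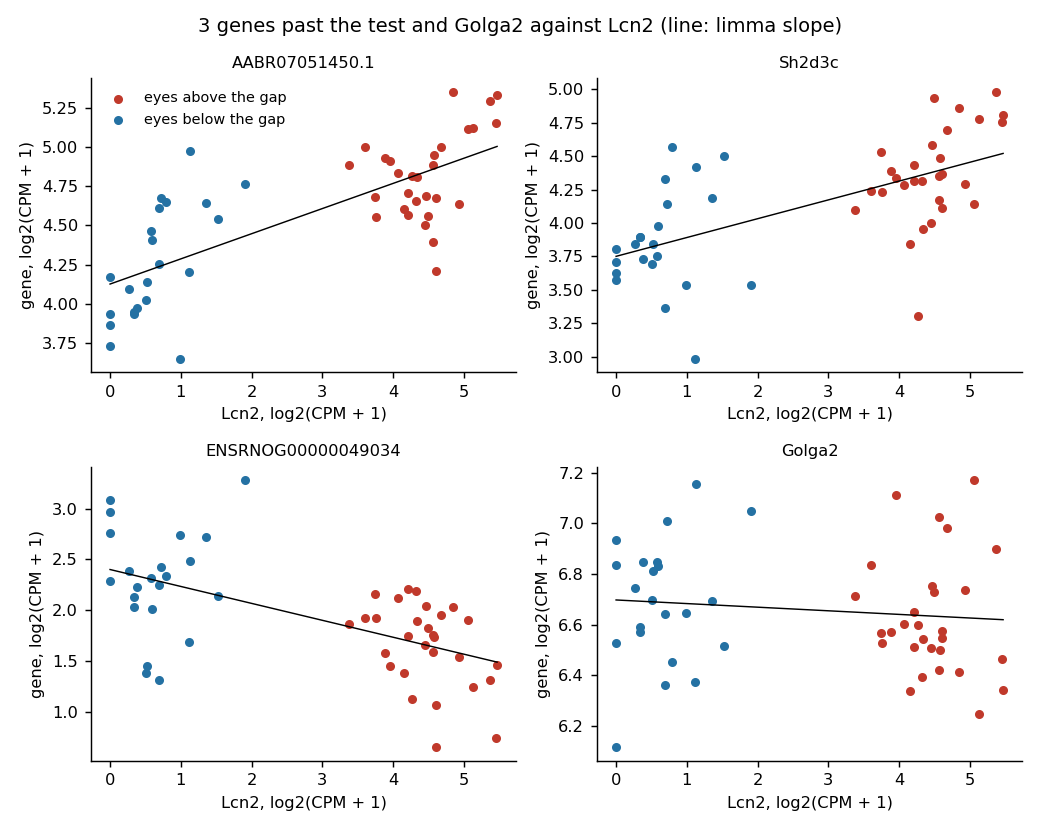
AABR07051450.1, Sh2d3c, ENSRNOG00000049034 and, for comparison, the nearer gene Golga2 (vertical axes, log2(CPM + 1)) against Lcn2 (horizontal axes, log2(CPM + 1)). Each point is 1 of 51 eyes, red above the gap and blue below it, and the line has the limma slope, 0.161, 0.141, -0.167 and -0.0142. The first 3 panels show the shift between the 2 clusters, with overlapping values, and the Golga2 panel shows a nearly level line.

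The 3 relations were also looked at within the sides of the gap, where Lcn2 varied less. Above the gap AABR07051450.1 had an r of 0.43 and a rho of 0.37 (n = 29, permutation p of 0.0205 and 0.0482), and below it an r of 0.66 and a rho of 0.72 (n = 22, permutation p of 0.00097 and 0.00038). Sh2d3c had an r of 0.47 and a rho of 0.46 above the gap (permutation p of 0.00979 and 0.0118), and an r of 0.19 and a rho of 0.25 below it (permutation p of 0.401 and 0.269). ENSRNOG00000049034 had an r of -0.44 and a rho of -0.41 above the gap (permutation p of 0.0175 and 0.0276), and an r of 0.08 and a rho of -0.02 below it (permutation p of 0.724 and 0.941). None of these passed after adjustment over the 296 relations of 148 genes, where the smallest adjusted permutation p of the 3 genes was 0.112 by rho and 0.144 by r, both for AABR07051450.1 below the gap. Without the 2 eyes of each side farthest from its median Lcn2, r above the gap was 0.40, 0.41 and -0.44 for the 3 genes, and below it 0.60, 0.21 and -0.19. Whether a relation differed between the sides was not tested.

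AABR07051450.1 passed in 13 of 17 alternative fits, Sh2d3c in 10 of 17 and ENSRNOG00000049034 in 6 of 16. With the 20 expression components as covariates its slope was 0.164 (adjusted p of 0.0243), against 0.131 for Sh2d3c (adjusted p of 0.203) and -0.065 for ENSRNOG00000049034 (adjusted p of 0.976). Without the 11 relabelled eyes the slopes were 0.168, 0.114 and -0.150, with adjusted p of 1.20e-05, 0.371 and 0.663. In the 39 eyes of the common tag prefix they were 0.177, 0.142 and -0.184 (adjusted p of 3.14e-05, 0.0169 and 0.0532), and in the 12 other eyes 0.104, 0.139 and -0.113 (adjusted p of 0.939 for each).

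The other genes around Lcn2 did not pass. Of 27 tested genes that start within 0.5 Mb of it, 10 lie at lower and 17 at higher positions, and the 24 that did not pass had slopes between -0.037 and 0.053, the smallest unadjusted p being 0.106. Between Lcn2 and the nearest of the 3 genes, 8 tested genes start, none of which passed. Golga2, the gene of a golgin that holds Golgi membranes together, starts at 11317183, 100 kb on the other side, and had a slope of -0.0142 (unadjusted p of 0.417). Its median level was 96.2 CPM. ENSRNOG00000022681, which starts only 6.8 kb from Lcn2 but had a median of 0.789 CPM, entered just the fit of all genes above 0 in any eye, with a slope of 0.051 (unadjusted p of 0.143). In that fit, a gene 403 kb from Lcn2 with a median of 0.415 CPM had a slope of 0.082 and an unadjusted p of 0.00971 (adjusted p of 0.991), the smallest p among the neighbours with a median under 1 CPM. Within the eyes above the gap, a gene 262 kb away had a rho of 0.46 with Lcn2 (permutation p of 0.0139, adjusted p of 0.488), and over all eyes its slope was 0.033 (unadjusted limma p of 0.396).

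**Figure D3:**
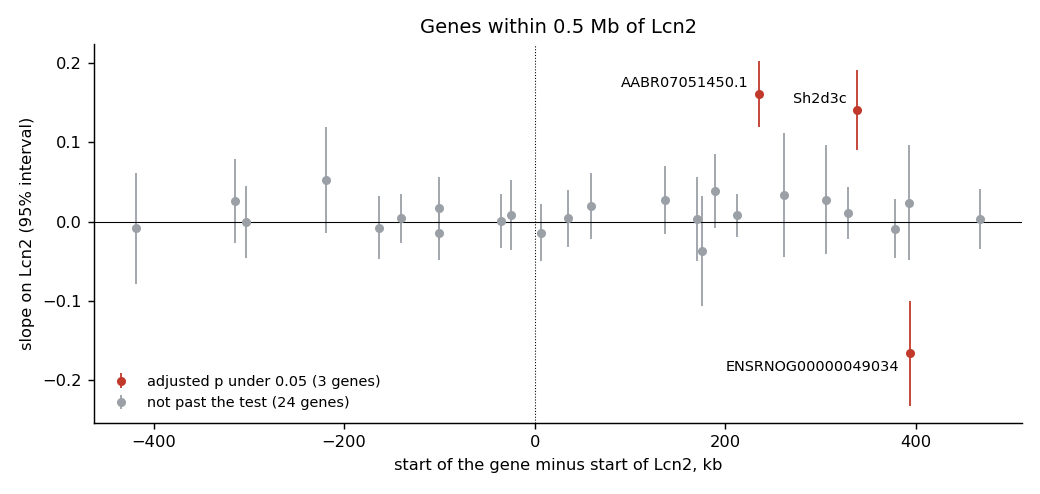
Slope on Lcn2 with its 95% interval (vertical axis, log2 per doubling of Lcn2 CPM + 1) of the 27 tested genes within 0.5 Mb, against the distance of their start from that of Lcn2 (horizontal axis, kb, positive towards higher positions). Red marks the 3 genes past an adjusted p of 0.05, at 236, 339 and 394 kb, and grey the 24 others, whose slopes lie between -0.037 and 0.053.

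Outside this region, 0 of 13816 genes passed in limma, with a smallest unadjusted p of 0.000333 (adjusted p of 0.999). Over all tested genes, 460 had an unadjusted p under 0.05, of which 258 had a positive and 202 a negative slope, and this is 3.32% of the genes tested. The median slope was 0.00067. In counts simulated for this fit over 13843 genes, 100 genes were given a slope of 0.2 and 100 a slope of 0.4. All were called, as were 11 of 13643 unchanged genes. So many changed genes make the Benjamini-Hochberg cut looser than in the real fit, and real genes may vary otherwise than the simulated ones. Slopes as small as those of the called genes were not simulated, so whether such slopes would have been found elsewhere is not known. The median SE of a slope was 0.0264.

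**Figure D4:**
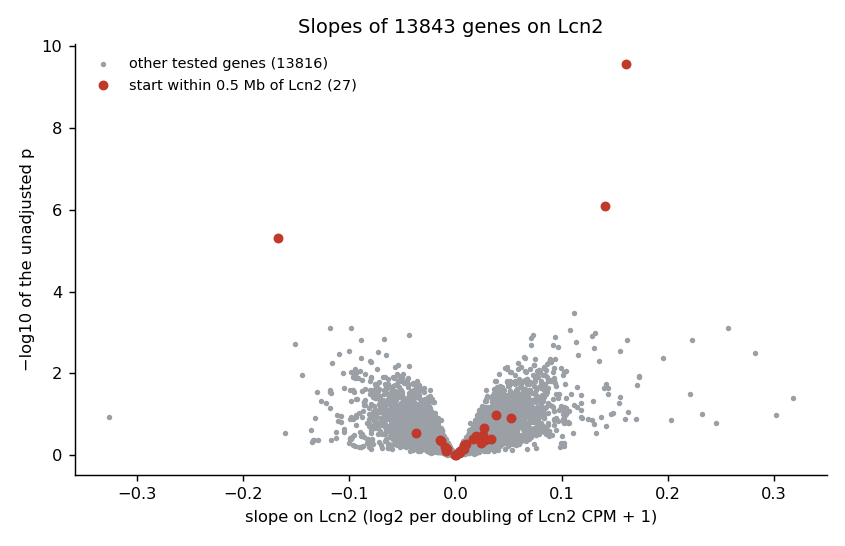
Unadjusted p as −log10 (vertical axis) against the slope on Lcn2 (horizontal axis, log2 per doubling of Lcn2 CPM + 1) for the 13843 genes tested. Red points are the 27 genes that start within 0.5 Mb of Lcn2 and grey points the 13816 others. The 3 called genes stand above all grey points, of which the highest has a p of 0.000333.

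Only 706 of the tested genes could be named, nearly all of them because the authors listed them as having a cis-eQTL in these same eyes, so the named genes are a selection made on these samples. None of those that follow passed, all with an adjusted p of 0.999. Among the named genes, the next after AABR07051450.1 and Sh2d3c in rank likeness to Lcn2 was Nmu, the gene of the neuropeptide neuromedin U, with a Spearman rho of 0.49 over 51 eyes, against 0.74 for AABR07051450.1, 0.67 for Sh2d3c and -0.61 for ENSRNOG00000049034. Nmu had 4.58 to 15.2 CPM with a median of 9.49 CPM in the eyes above the gap, against 2.37 to 17.4 CPM with a median of 5.42 CPM in those below it, so the ranges overlapped over nearly all of their width. Its slope was 0.132 (unadjusted limma p of 0.00103). The next in rho were Acad11, an acyl-CoA dehydrogenase gene, at 0.46, and H2ax, the gene of a histone variant that is marked at DNA breaks, at 0.40. These rho values share the same Lcn2 values and the same libraries.

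Other genes among the 10 smallest p with a positive slope were Trim45, a ubiquitin ligase gene (0.135), Mrap2, the gene of an accessory protein of melanocortin receptors (0.0745), and Trub2, a pseudouridine synthase gene (0.0483). Cyb561a3, a cytochrome b561 family gene (0.0850), and Col9a1, the gene of a collagen of cartilage and vitreous (0.101), completed them. Among the named genes with a negative slope that did not pass, the smallest p was that of Adgrf5, an adhesion receptor gene, with a slope of -0.0791 (unadjusted limma p of 0.00527). Gsn, the gene of the actin-severing protein gelsolin (-0.0963), and Bbs12, a ciliary chaperonin-like gene (-0.106), came next. Trub2 and Gsn are also on chromosome 3, with starts at -3069 and 3050 kb from that of Lcn2 (negative towards lower positions). Rap1gds1 (-0.0493), Mob1a (-0.0676), Mcm4, a subunit of the replicative helicase (-0.0468), Zdhhc24 (-0.0485), Nvl (-0.0584) and Wdr35, a gene of transport in cilia (-0.0368), were also among the 10 smallest p.

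Genes were then read from 12 lists, some of processes in which lipocalin 2 is known to act and others of cell types and tissues. The lists hold 184 genes, of which 119 could be named and 103 were expressed enough to be tested. None of the 103 passed in limma, against 0.0217% of all genes. An unadjusted p under 0.05 was found for 2 of them, or 1.94%, against 3.32% of all genes tested. Their median slope was 0.0035, against 0.00067 over all genes. The outermost bounds of their 95% intervals were -0.227 and 0.241, so for some of them the interval holds slopes as large as those of the called genes. Most of these names come from the list of genes with a cis-eQTL, so each list is covered only in part.

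Of the partners of lipocalin 2, Lrp2, the gene of megalin, had a slope of 0.0035. Lrp10, a related receptor gene of the same list that is not taken here as a partner, had 0.0248 (unadjusted p of 0.205). Mmp9, the gene of a metalloprotease that forms a complex with lipocalin 2 in human neutrophils, had a median of 0.248 CPM and was below the level tested. In the fit of all genes above 0, its slope was -0.069 (unadjusted p of 0.158). The cell surface receptor gene Slc22a17 could not be named in these files.

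Of 13 tested genes of innate sensing and NF-kappaB signalling, 0 passed, with a median slope of 0.0127, and the smallest p was that of Tnip1, which restrains NF-kappaB (slope of 0.0310, unadjusted p of 0.167). The 11 genes of the acute phase and reactive glia had a median slope of 0.0076, led by Spp1, the gene of osteopontin (-0.0478, p of 0.224). The 4 genes of the interferon response held the smallest p among the 103 tested genes of all lists, that of the interferon-induced gene Ifi27 (0.0845, unadjusted p of 0.0183). Ifi27 had 27.8 to 88.2 CPM with a median of 60.5 CPM in the eyes above the gap, against 15.7 to 104 CPM with a median of 50.4 CPM in those below it. The 8 genes of antigen presentation had a median of 0.0069, led by the class I gene RT1-A1 (0.0836, p of 0.126). The 6 genes of iron, heme and oxidant handling had the highest median, 0.0194, led by the glutathione peroxidase gene Gpx3 (0.0603, p of 0.0584).

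Markers of cells that could bring Lcn2 into an eye were covered unevenly. The 4 tested myeloid genes had slopes of 0.0010 to 0.0796, and the highest was that of the macrophage marker Cd68 (unadjusted p of 0.236). Cd68 had 0 to 15.5 CPM with a median of 2.72 CPM in the eyes above the gap, against 0.537 to 10.9 CPM with a median of 1.97 CPM in those below it. Cd14 and Tlr2, genes of receptors for bacterial products, had medians of 8.94 and 3.63 CPM in the eyes above the gap, against 7.97 and 3.07 CPM in those below it. For all 3 genes the ranges of the sides overlapped almost wholly, and Sirpa, which neurons express too, had a slope of 0.0050. No neutrophil marker could be named in these files, and the part of neutrophils in the levels of Lcn2 was not tested. Cdh1, the gene of epithelial cadherin, was at 110 to 282 CPM over all eyes, so every eye held epithelial RNA. The 17 genes of the surface epithelium of cornea and conjunctiva had a median slope of 0.0019, led by Elf3, an epithelial transcription factor gene (0.0417, p of 0.158). The 2 tested blood genes had slopes of -0.0979 for the beta-globin gene Hbb (p of 0.118) and 0.0111 for the other. Hba-a3, of the same list, had a median of 0.160 CPM and was below the level tested. In the fit of all genes above 0, its slope was -0.0713 (unadjusted limma p of 0.0154, adjusted p of 0.991).

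Genes of the retina, pigment cells and stroma had small slopes too. Guca1b, a photoreceptor gene, was at 360 to 898 CPM over all eyes, so every eye also held retinal RNA. Photoreceptor and retinal neuron genes, 14 in all, had slopes of -0.0218 to 0.0315, led by Impdh1, an enzyme gene of purine synthesis used in photoreceptors (p of 0.161). The 12 genes of pigment and lysosome had a median of 0.0027, and Glb1, the gene of lysosomal beta-galactosidase, had an unadjusted p of 0.0213 (slope of 0.0436). The 12 genes of stroma and extracellular matrix had the median -0.0113, led by the Wnt antagonist gene Sfrp1 (-0.0412, p of 0.212).

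**Figure D5:**
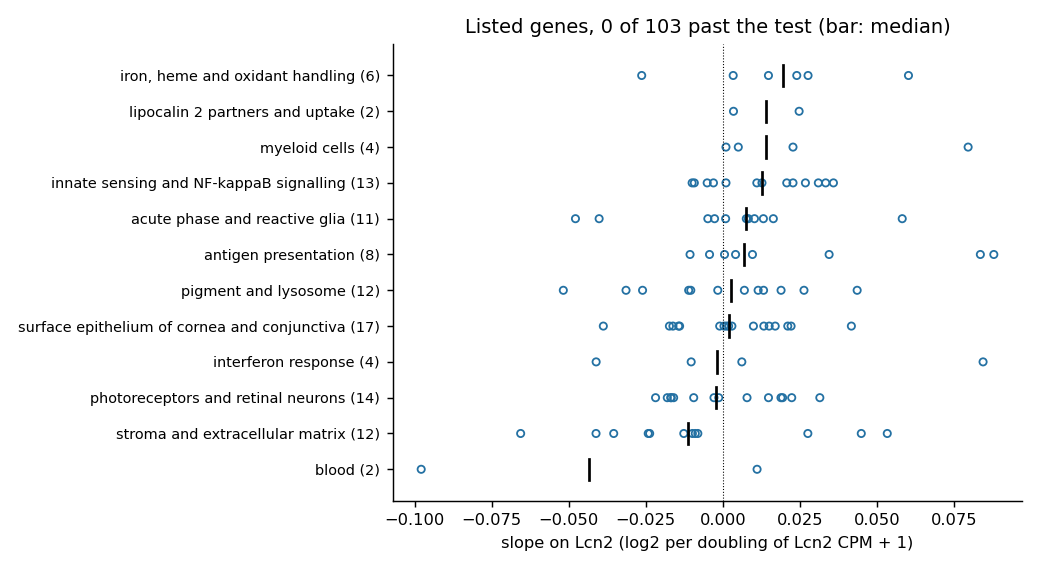
Slope on Lcn2 (horizontal axis, log2 per doubling of Lcn2 CPM + 1) of the tested genes of 12 lists, with the number tested in brackets (rows). Each circle is a gene and each black bar the median of its list. Of 103 genes, 0 passed the test, and the list medians lie between -0.0434 for blood and 0.0194 for iron, heme and oxidant handling.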

How the data were processed

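Whole-eye RNA-seq of 51 HS rats, 1 eye per rat, was analysed. The authors removed 2 further eyes, which were not used here. The deposited table holds log2(expected count + 1), estimated with RSEM for 32576 genes after alignment to Rnor_6.0 with STAR and matching of libraries to genotypes with GATK, in versions that the sources used here do not name. The log2 was undone, counts were scaled to CPM, and log2(CPM + 1) was fitted on Lcn2 with limma 3.58.1 under R 4.3.3, letting the prior variance follow the level, for genes whose median reached 1 CPM. Python 3.11.15 (with numpy 2.4.6, pandas 2.3.3, scipy 1.17.1 and, for plots, matplotlib 3.10.9) was used for the rest.

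Genes were named by start position, exactly for 778 genes and within 500 bp for 7, from the supplementary list of cis-eQTL genes and the table of locus genes of the study. Named genes are the 10 smallest p in each direction, the 5 highest and lowest rho, the smallest p of each list and the genes near Lcn2. The result of 1 of them is not reported here. Lcn2, the lists and the tests were chosen with earlier results of these data known. Correlations, planned over all eyes, were computed on each side of the gap, since the eyes formed 2 clusters. Permutation p-values are two-sided, from 100000 permutations, and each eye is a separate rat. Relatedness between rats was not modelled. Alternatives in scaling, filter, covariates and eyes were set before these fits, except those said to be chosen later. The fit was tested on simulated data, where 100 of 100 genes with a slope of 0.4 were called. The promoter is RefSeq's, build GRCr8. Limits from a count of 0 cover counting error only.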

Additional observations from a re-analysis of the deposited data

How the results depend on the processing

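The number of genes past an adjusted p of 0.05, 3 over the 51 eyes, was 6 on the values as deposited, which keep the depth of each library in Lcn2 and in the gene, and of these 6 only 2 start near Lcn2. It was 1, AABR07051450.1, with 20 expression components as covariates, 1 in the eyes with Lcn2 above 0, and 1 without the relabelled eyes. It was 0 in the 12 eyes of other tag prefixes (426 with an unadjusted p under 0.05). It lay at 2 or 3 with median-of-ratios scaling, a pseudocount of 0.1 CPM, no filter, a median of at least 5 CPM, ranks, 5 components, technical covariates, the common tag prefix or without the 3 deepest eyes. The 3 genes of the common prefix hold 1 on chromosome 19 in place of ENSRNOG00000049034. The 4 eyes at 0 tie as the farthest from the median, so leaving out the 2 farthest became the fit of eyes with Lcn2 above 0. In fits chosen after seeing the data, limma called 0 genes in the eyes above the gap (1152 with an unadjusted p under 0.05), 0 in those below it (747) and 0 with the side of the gap as a covariate (1210, smallest adjusted p of 0.164). There, Lcn2 varied over a narrower range. Below the gap the slope of ENSRNOG00000049034 was 0.082 (adjusted p of 0.962), against -0.167 in all eyes. On the values as deposited the r of Lcn2 with the log2 total count above the gap was 0.62 (adjusted permutation p of 0.0036), against -0.06 in CPM. The cause of the other shifts was not tested. No paired analysis was possible because the labels give a single group.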
